A study of Mus musculus with 3 samples.

Results

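Open chromatin regions (OCRs) that were called at E16.5 and at no earlier stage numbered 8585 autosomal regions in the descendants of Hic1+ mesenchymal progenitors (MPs) of the mouse forelimb. They were chosen by merging the called peaks of 3 single-nucleus ATAC-seq libraries wherever peaks overlapped by 1 bp or more, and by keeping the autosomal merged regions that held a peak in the E16.5 list only and a count in 3% or more of the E16.5 nuclei. The 3 lists merged into 260778 autosomal regions, of which 71469 were called only at E16.5, and 12% of the latter reached the 3% share. Each of the 8585 was a single E16.5 peak. Membership therefore rests on peak calls and on the share of nuclei, and shares of all nuclei are given below as a description of what the rule chose.

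The study followed Hic1-expressing limb mesenchyme by lineage tracing and profiled its chromatin in E12.5, E14.5 and E16.5 embryos, with 1 library per stage and no replicate at any stage. All 3 groups were C57BL/6J embryos of the genotype Hic1 CreERT2/CreERT2; Rosa26 LSLtdTomato/tdTomato from dams given 7.5 mg of tamoxifen by gavage at embryonic day 10, so no group had an unmodified Hic1 locus and a cell was marked only if it or an ancestor had Hic1-driven Cre activity around that time. Cells positive for tdTomato were sorted after removal of cells bearing CD45, CD117, CD31, CD11b, F4/80 or Ter119, and embryos were pooled. The E12.5 and E14.5 cells came from forelimbs, whereas the E16.5 cells came from the segment between the distal stylopod and the proximal zeugopod, which holds the elbow joint. E12.5 tissue was digested with Dispase and later tissue with a mixture of Collagenase A, Pronase and DNase.

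Stage, dissected segment, library, depth and software release cannot be told apart in this design, and with 1 library per stage no test between stages was possible. The E16.5 library held 14048 nuclei with a median of 26694 counts per nucleus, against 8294 nuclei and 6004 counts at E12.5 and 20023 nuclei and 8575 counts at E14.5. The authors' software called 213613 peaks at E16.5, 190443 at E12.5 and 102459 at E14.5, and the file headers name release 1.2.0 at E16.5 and 1.0.1 at both earlier stages. Counts were listed for called peaks only, so the members have no value at E12.5 or E14.5, and absence from a list does not show that a region was closed. Intervals below are 95% intervals (exact binomial for shares, exact Poisson for counts) and cover counting error only. Barcodes shared between libraries numbered 151 to 401 per pair.

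Open chromatin outside promoters marks enhancers and other distal regulatory elements, which are bound by transcription factors in a cell type-dependent manner and act on genes over variable distances. AP-1 factors (dimers of the Fos and Jun families) bind such elements in many cell types and are induced by growth factors and stress, while nuclear factor I (NFI) proteins are developmental regulators of which Nfia, Nfib and Nfix are known for their part in cell maturation. In the limb of this period the mesenchyme forms cartilage, tendon, joint tissue, dermis and the interstitial fibroblasts of muscle, which secrete collagens and other matrix proteins.

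The E16.5 nuclei were grouped into 8 clusters with regions called at all 3 stages, so that no member took part in the clustering and no marker gene's surroundings did. Cluster 4 was chondrogenic-like: all 19 chondrogenic markers were at least 1.5-fold higher there than in the other nuclei. Cluster 6 was tenogenic-like with 5 of 8 tenogenic markers past that fold (median log2 ratio 0.84). In that cluster 3 of 19 chondrogenic markers passed too (median -0.08), and none of its 10 leading genes was a marker of any list. Cluster 3 was dermal fibrogenic-like with 6 of 13 markers of that list. Cluster 7 was epithelial-like, with 4 of 6 measured epithelial markers past 1.5-fold, Cdh1 (E-cadherin) most of all. Perineural markers passed in 3 of 4 and dermal fibrogenic markers in 3 of 13 there too, with median log2 ratios of 0.74 and -0.12 against 1.26 for the epithelial list, and Cdh1 was the leading gene of the cluster, followed by Sfn, with the junction genes Ppl and Jup and the epithelial regulator Grhl3 also in its top 10. Clusters 1, 2, 5 and 8 were left unnamed, although fibrogenic markers had their highest median in clusters 2 and 5, where 3 and 4 of 17 passed 1.5-fold, and 6 of 10 MP markers passed in cluster 8, whose leading gene was Cdk8 and whose nuclei were shallow.

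A mesenchymal sort should hold few epithelial cells, whereas perineural cells can descend from Hic1+ MPs, and which of these the cluster holds was not tested. Results are therefore given with and without the epithelial-like nuclei where they matter. They numbered 1179 of 14048 (8.39%, interval 7.94 to 8.86%). The summed level of the epithelial list was 327 counts per 1000000 (CPM) in these nuclei and 113 CPM in the others, a ratio of 2.89. Cdh1 was at 212 against 28.2, Epcam (an epithelial adhesion molecule) at 50.1 against 10.8, and Krt1 (a keratin) at 22.1 against 8.05. Krt14, a basal keratin, was at 5.39 against 2.2. These levels used only regions called at all 3 stages, so they leave out a member at the Krt14 promoter. That member was found in 38.2% of the epithelial-like nuclei and in at most 1.84% of any other cluster. Krt10 and Trp63 were lower in these nuclei, at 14.2 against 28.1 and at 22.5 against 35.6, and Krt5 had no region to measure. Over whole libraries the list summed to 127 CPM at E16.5, against 119 CPM at E14.5 and 154 CPM at E12.5. The study's own methods note a small epithelial contamination in its E16.5 RNA data.

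Sequences of the members that carry the patterns below are given first (GRCm38, plus strand, the central 300 bases of each region). Capitals mark matches, on either strand, to 6 short motifs whose shares are compared further on: AP-1 (TGANTCA), the NFI half-site (TTGGCA), the motif of GATA factors (AGATAA), RUNX (TGTGGTT), the E-box CAGCTG and the homeobox core TAATTA. The distal member found in the largest share of nuclei lay at chr13:90644985-90647289, 259218 bp downstream of the nearest protein-coding start site (Atp6ap1l), and the shown bases hold none of the 6 motifs.
near Atp6ap1l, chr13:90645987-90646286: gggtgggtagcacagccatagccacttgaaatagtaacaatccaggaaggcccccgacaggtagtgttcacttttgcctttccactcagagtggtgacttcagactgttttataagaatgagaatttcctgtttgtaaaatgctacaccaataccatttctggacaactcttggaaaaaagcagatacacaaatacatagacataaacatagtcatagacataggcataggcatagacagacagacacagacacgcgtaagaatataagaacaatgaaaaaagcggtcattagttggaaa
The next 5 lines show, for clusters 3 to 7 in order, the member whose level in that cluster was highest relative to all other nuclei, each named by its nearest protein-coding gene. Capitals appear in 2 of them, near Farsb and Runx1.
near Dkk2, chr3:132232976-132233275: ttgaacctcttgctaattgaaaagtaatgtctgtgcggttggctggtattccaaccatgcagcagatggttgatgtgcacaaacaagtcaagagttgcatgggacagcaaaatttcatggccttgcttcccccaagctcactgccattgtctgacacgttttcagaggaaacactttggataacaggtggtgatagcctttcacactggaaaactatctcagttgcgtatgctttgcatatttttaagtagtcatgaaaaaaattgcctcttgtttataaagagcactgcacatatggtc
near Sorbs2, chr8:45564439-45564738: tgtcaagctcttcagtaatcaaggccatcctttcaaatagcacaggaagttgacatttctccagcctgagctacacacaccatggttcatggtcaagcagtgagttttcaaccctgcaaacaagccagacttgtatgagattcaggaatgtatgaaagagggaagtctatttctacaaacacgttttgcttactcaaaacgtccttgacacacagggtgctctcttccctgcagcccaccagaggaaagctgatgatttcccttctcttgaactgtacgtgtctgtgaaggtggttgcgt
near Farsb, chr1:78450152-78450451: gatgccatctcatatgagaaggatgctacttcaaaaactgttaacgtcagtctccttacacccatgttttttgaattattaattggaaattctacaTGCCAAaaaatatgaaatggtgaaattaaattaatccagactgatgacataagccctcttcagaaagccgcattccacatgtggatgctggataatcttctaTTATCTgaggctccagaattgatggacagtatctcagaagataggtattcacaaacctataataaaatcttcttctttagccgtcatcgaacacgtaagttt
near Runx1, chr16:93156113-93156412: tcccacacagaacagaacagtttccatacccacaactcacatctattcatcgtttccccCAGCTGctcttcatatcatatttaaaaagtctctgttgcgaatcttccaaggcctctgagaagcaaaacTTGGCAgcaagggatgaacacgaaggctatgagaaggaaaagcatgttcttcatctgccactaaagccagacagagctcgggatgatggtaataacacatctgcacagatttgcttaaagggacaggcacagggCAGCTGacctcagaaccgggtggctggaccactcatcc
near Ifi202b, chr1:173982970-173983269: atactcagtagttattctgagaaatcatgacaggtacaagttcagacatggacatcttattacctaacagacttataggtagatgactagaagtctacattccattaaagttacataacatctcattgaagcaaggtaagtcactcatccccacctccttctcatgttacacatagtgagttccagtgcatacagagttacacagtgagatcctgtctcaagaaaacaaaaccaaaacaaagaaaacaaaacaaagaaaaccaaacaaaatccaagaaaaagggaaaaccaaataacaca
The region 147834 bp downstream of Dkk2, which encodes a Wnt antagonist, had a count in 24.9% of cluster 3 nuclei and in 0.394% of the others. The region 56671 bp downstream of the start of Sorbs2 had one in 24.5% of the chondrogenic-like nuclei and in 0.99% of the others. The region 330114 bp upstream of Runx1 had one in 25.7% of the tenogenic-like nuclei and in 0.879% of the others. The region at Ifi202b was the only promoter among the 5, with a count in 38.9% of the epithelial-like nuclei and in 0.661% elsewhere. The region near Farsb, in cluster 5, had a count in 19% of that cluster and in 1.7% of the others, and its bases carry both an NFI half-site and a GATA match.

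A further 3 regions, picked after the motif shares were known, show the letters behind those shares. They are the members with the highest ratio in cluster 1 among those with an E-box CAGCTG, in cluster 3 among those with a homeobox core, and in cluster 7 among those with an AP-1 motif. Their nearest protein-coding start sites were 16067 bp (Fras1), 240420 bp (Cmpk2) and 491208 bp (Hsf2) away.
near Fras1, chr5:96357738-96358037: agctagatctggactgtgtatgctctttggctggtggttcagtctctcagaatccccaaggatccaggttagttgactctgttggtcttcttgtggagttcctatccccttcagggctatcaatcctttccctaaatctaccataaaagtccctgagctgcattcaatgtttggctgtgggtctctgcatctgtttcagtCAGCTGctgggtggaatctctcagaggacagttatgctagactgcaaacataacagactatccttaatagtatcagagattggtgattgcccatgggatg
near Cmpk2, chr12:26709474-26709773: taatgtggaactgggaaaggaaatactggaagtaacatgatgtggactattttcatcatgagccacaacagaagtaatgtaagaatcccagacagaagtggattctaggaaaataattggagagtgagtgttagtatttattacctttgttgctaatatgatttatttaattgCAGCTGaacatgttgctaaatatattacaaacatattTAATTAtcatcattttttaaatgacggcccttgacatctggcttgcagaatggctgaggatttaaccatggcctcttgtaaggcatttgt
near Hsf2, chr10:56995038-56995337: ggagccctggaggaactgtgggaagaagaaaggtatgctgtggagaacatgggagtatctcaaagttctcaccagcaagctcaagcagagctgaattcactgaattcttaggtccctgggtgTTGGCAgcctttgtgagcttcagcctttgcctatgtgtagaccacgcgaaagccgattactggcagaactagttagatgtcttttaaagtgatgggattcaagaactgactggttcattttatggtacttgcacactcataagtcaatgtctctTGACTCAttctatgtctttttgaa

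The members were distal. Of the 8585, 331 (3.86%, interval 3.46 to 4.28%) overlapped a promoter, taken as 1000 bp before to 100 bp after any annotated start site, 833 (9.7%) overlapped an exon, 3896 (45.4%) an intron and 3525 (41.1%) no gene. Their median distance to the nearest start site of any kind was 17720 bp, with quartiles at 7154 and 39756 bp, and 531 (6.19%) lay more than 100000 bp away. Regions called at all 3 stages and found in the same range of shares (3% up to the members' 95th percentile of 7.81%, with a median share of 4.95% against the members' 3.97%) overlapped promoters in 6.75% of 31418 cases, with an interval of 6.48 to 7.03%. Regions called at E14.5 and E16.5 but not at E12.5 did so in 3.33% (2.84 to 3.87%) and those called at E12.5 and E16.5 but not at E14.5 in 5.07% (4.63 to 5.53%). The members thus overlapped promoters less often than regions of like share called throughout, by more than counting error, while their interval overlapped that of regions first called at E14.5. With protein-coding start sites alone the share at promoters was 1.43% and the median distance 43726 bp.

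**Figure D1:**
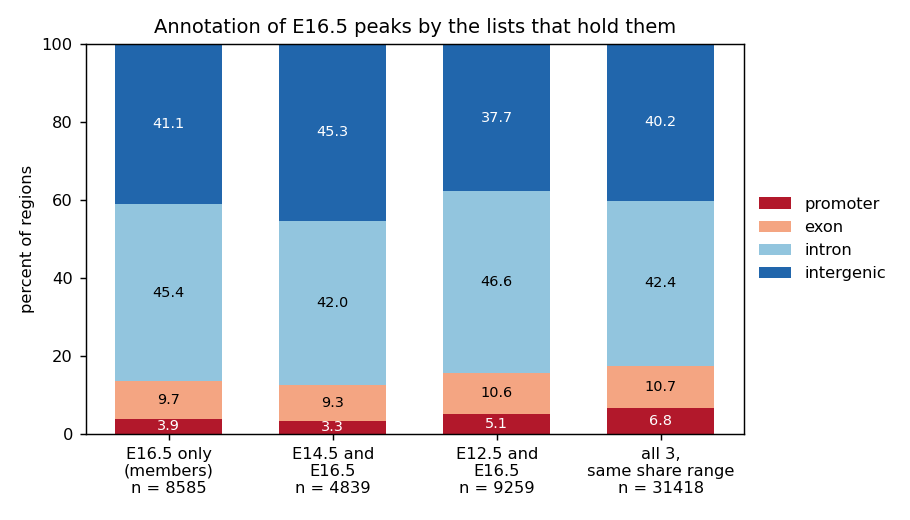
Percent of regions (y axis) that overlap a promoter, exon, intron or no gene, for E16.5 peaks with a count in 3% or more of nuclei, in 4 classes set by the lists that hold them (x axis, n below each bar). Promoters make up 3.86% of the members and 6.75% of the regions called at all 3 stages within the same range of shares.

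In width the members were close to regions of like share called at all 3 stages, and in base composition they were not. Their median width was 911 bp against 924 bp, and the range was 520 to 4999 bp. GC content of the central 300 bases was lower, with medians of 44.7% and 47%, and the ratio of observed to expected CpG was 0.184 against 0.244. These medians were 44.3% and 0.194 in regions called at E14.5 and E16.5 but not at E12.5. In those called at E12.5 and E16.5 but not at E14.5 they were 46.3% and 0.201. Repeats masked in the reference made up 12.9% of the members' central bases and 12.2% of the compared regions'.

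The members' nearest E12.5 peak was at a median of 3130 bp and the nearest E14.5 peak at 5639 bp, the E14.5 list being the shortest. For regions called only at E16.5 with a share under 3% these medians were 3071 and 5949 bp. Of the members, 1278 (14.9%) had an earlier peak within 1000 bp and 424 (4.94%) had none within 20000 bp, against 17.1% and 5.37% of the regions under 3%. The most isolated lay at chr15:14689080-14689787 nearest to Cdh6, which encodes a cadherin, 283476 bp from any earlier peak. Members rarely formed long runs: 6241 (72.7%) had no other member within 20000 bp, and 197 runs held 3 or more. The longest run held 6 members and lay over Col1a2. Among E16.5 peaks with a count in 3% or more of nuclei, 9.45% were members, and by chromosome this share ranged from 7.79% on chromosome 17 to 10.8% on chromosome 1.

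Since the rule set a minimum of 3%, the shares describe the choice of members. The median member had a count in 3.97% of nuclei (558 of 14048) and held 1234 counts, and members together held 2.96% of the library's counts. A nucleus had a count in a median of 335 members, with 54 and 902 at the 5th and 95th percentiles. When nuclei were thinned to 7187 fragments each, which 10537 nuclei reached, the median share of the members was 2.05%, and 1392 of the regions called only at E16.5 reached 3%. The 3% boundary cut through a continuum: the 3 members just inside it, near Sdk2, Sectm1b and Peli1, were each found in 422 nuclei (3.004%), and the 3 regions just outside, near Bcr, Rfx4 and Dnah17, in 421 each (2.997%).

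The members were also set beside the earlier lists at an equal level, and the part of library size in the calls was not tested. Had the median member been at the same level relative to regions called at all 3 stages, it would have held 728 counts at E14.5, and 47.5% of the autosomal E14.5 peaks held fewer. At E12.5 it would have held 275 counts, and 64.9% of the autosomal E12.5 peaks held fewer. Per kb of called width the picture at E14.5 was different: the median member would have held 844 counts per kb, and 6.38% of the E14.5 peaks held fewer, where the median E14.5 peak held 1301 per kb. At E12.5 the value per kb was 62.3%.

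The members with the largest shares were mostly found in many kinds of nuclei. The region downstream of Atp6ap1l, shown above, had a count in 18.4% of nuclei (17.8 to 19.1%), ranging from 3.82% of the epithelial-like and 4.82% of the chondrogenic-like nuclei to 27.8% of cluster 1 and 30.8% of cluster 2. A region 1213672 bp from Pla2g4a, the gene of a cytosolic phospholipase, followed at chr1:148707358-148710175 with 17.3%, and was highest in cluster 5 at 34.5%. Its nearest E14.5 peak was 284437 bp away and its nearest E12.5 peak 30882 bp. Another region, in an intron of Baiap2l1 at chr5:144287060-144290623 and nearest to the start of Bri3, had a count in 17% of nuclei and was high in the epithelial-like cluster (29.9%) and cluster 5 (27.3%). These 3 regions differ in which clusters carry them, and the chondrogenic-like nuclei were low in each, at 4.41 to 8.29%.

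Other members among the 15 with the largest shares lay in introns of Cpe (carboxypeptidase E, 14.9%), Irf2 (an interferon regulatory factor, 14.5%), Zfp438 (14.2%), S100a3 (14.2%) and Tmeff2 (14.1%), over exons of Rpgrip1l (14.8%), Dnal4 (14.3%) and Plekhf1 (14%), and further from coding genes near Tcf7l2 (a Wnt effector, 14.9%), Gas1 (a hedgehog co-receptor, 14.3%) and Clec2d (14.2%). The region over Rpgrip1l at chr8:91216769-91219034, nearest to the start of Aktip, was unlike the rest. It had a count in 62.3% of the dermal fibrogenic-like nuclei and in at most 8.98% of any other cluster, 13.8-fold the level in all other nuclei. By the share of nuclei, those near Bri3 and Dnal4 were highest in the epithelial-like cluster, while that near S100a3 was found in 25.3% of it and in 27.9% of cluster 5.

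**Figure D2:**
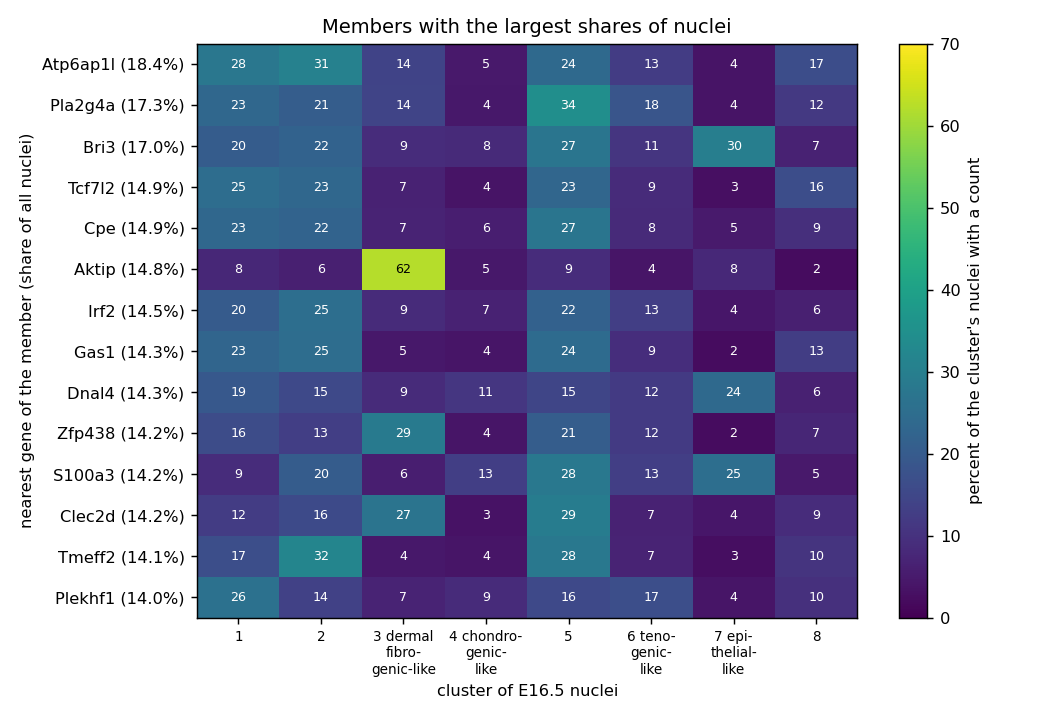
Members among the 15 found in the largest shares of E16.5 nuclei (rows, named by the nearest protein-coding start site, with the share of all nuclei) across the 8 clusters (columns); colour and numbers give the percent of each cluster's nuclei with a count. The region near Aktip reaches 62.3% of cluster 3 and at most 8.98% of any other cluster, while the chondrogenic-like cluster stays at or below 12.9% in every row.

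Over all members, the nuclei differed in how much of their signal fell in these regions. The load, which is the number of counts in members per 1000 counts in regions called at all 3 stages, was 36.9 over the library and 17.9 to 67 between the 5th and 95th percentiles of nuclei. It was highest in the epithelial-like cluster at 57 (56.8 to 57.1), followed by cluster 5 at 50.1, cluster 3 at 40, cluster 2 at 39.9 and cluster 1 at 34.1. The tenogenic-like, chondrogenic-like and cluster 8 nuclei were lowest, at 26.4, 25.6 and 23.5. The highest load was 2.42 times the lowest, and 2.13 times without the epithelial-like nuclei. Intervals for these loads were narrow because the counts are large, and they leave out any difference between embryos. Across nuclei, the logarithms of load and depth had a Pearson correlation of -0.03 over 14048 nuclei of the same library, and of -0.33 to 0.17 within clusters, given as a description.

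The clusters stood in nearly the same order for one other class of regions and in a different order for another. For regions called at E14.5 and E16.5 but not at E12.5 the epithelial-like cluster had the lowest load of all, 18.1, against 43.5 in cluster 5. For regions called at E12.5 and E16.5 but not at E14.5 it had the highest, 77.3, against 44.6 in the next, cluster 3, and the order differed from that of the members only in that clusters 3 and 5 (44.6 and 43.8) and clusters 4 and 6 (32.2 and 31.7) changed places. Cluster 5 was first or second of the 7 other clusters in all 3 classes. Cluster 8 nuclei were shallow (median 15312 counts against 23374 to 32077 elsewhere), and 61.6% of their counts in regions called at all 3 stages lay at promoters, against 47 to 56.4% in the other clusters. How far depth contributed to the low load of cluster 8 was not tested.

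**Figure D3:**
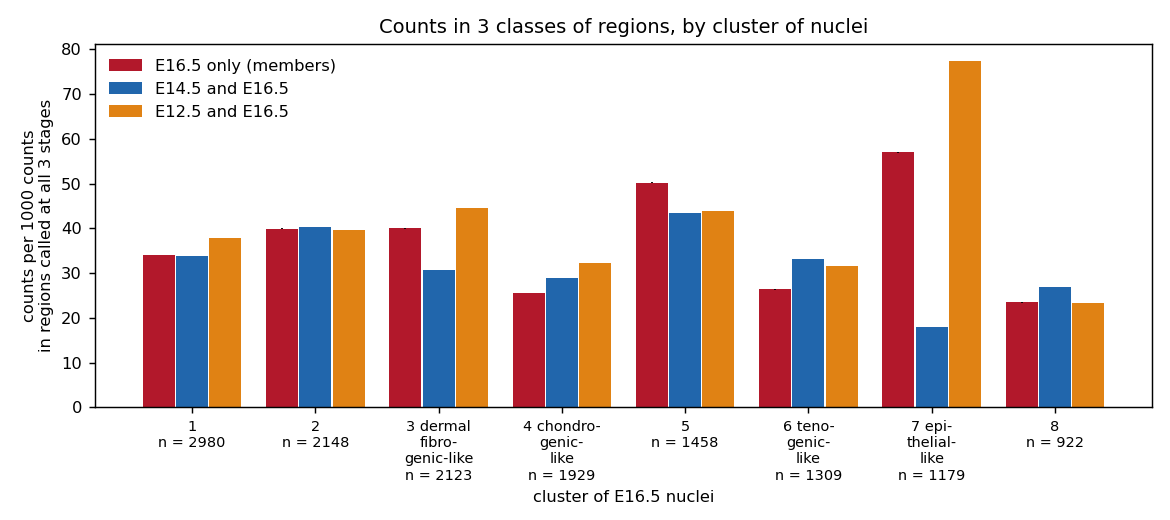
Counts per 1000 counts in regions called at all 3 stages (y axis) for the members, for regions called at E14.5 and E16.5 and for regions called at E12.5 and E16.5, in the 8 clusters of E16.5 nuclei (x axis, n nuclei below each); error bars on the members are 95% Poisson intervals. The epithelial-like cluster has the highest bars for the members (57) and for the E12.5 and E16.5 class (77.3) and the lowest for the E14.5 and E16.5 class (18.1).

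Single members were more unevenly spread over clusters than the compared regions. Here and below, the highest cluster is that with the highest level in CPM, which for 93.1% of members was also that with the largest share of nuclei. The level in the highest cluster was a median of 3.51 times that in all other nuclei, against 2.25 for regions called at all 3 stages in the same range of shares, 2.75 for the E14.5 and E16.5 class and 2.95 for the E12.5 and E16.5 class. A ratio of 2 or more in at least 1 cluster was found for 7644 members (89%), where the background was 59.2%. The E14.5 and E16.5 class (80.6%) and the E12.5 and E16.5 class (76.8%) lay nearer to the members. A ratio of 4 or more was found for 43% of members, 20.9% of the compared regions, 27.6% of the E14.5 and E16.5 class and 35.5% of the E12.5 and E16.5 class. Of the members, 989 (11.5%) reached 3% in 1 cluster alone and 190 (2.21%) in all 8, where 2.59% and 10.7% of the compared regions did. The members' shares were lower as a whole (median 3.97% against 4.95%), and the number of clusters reached depends on the share. Among regions with a share of 3 to 4%, 90.1% of 4348 members and 60.7% of 8425 compared regions had a ratio of 2 or more, and from 5 to 7.81% these were 88.2% and 58.6%. The E14.5 and E16.5 class was close to the members at matched shares, with 86.1% from 3 to 4% and 82.3% from 5 to 7.81%, and the E12.5 and E16.5 class had 75.6% and 79.2%. From 5 to 7.81%, 2.84% of members and 20.4% of compared regions reached 3% in all 8 clusters. These are descriptions of 1 library, without a test.

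By cluster, the largest excess over regions called at all 3 stages was in cluster 5, where 2215 members (25.8%) had a ratio of 2 or more against 5.07% of the compared regions. In the epithelial-like cluster this held for 1833 members (21.4%) against 12.9%, in cluster 2 for 1218 (14.2%) against 4.02%, in cluster 1 for 1285 (15%) against 8.87% and in the dermal fibrogenic-like cluster for 1714 (20%) against 16%. The skeletal lineages went the other way, with 589 members (6.86%) against 9.61% in the chondrogenic-like cluster and 478 (5.57%) against 10.2% in the tenogenic-like cluster. In cluster 8 it held for 43 members (0.501%) against 0.194%. Regions that reached the 3% minimum only through a cluster are high in it by construction. The compared regions met the same minimum. Several of these differences were also found in the classes called at 1 earlier stage. The E14.5 and E16.5 class had 20.6% in cluster 5 and 14.5% in cluster 2, and the E12.5 and E16.5 class had 31.4% in the epithelial-like, 5.92% in the chondrogenic-like and 5.33% in the tenogenic-like cluster. Others were not shared. The E14.5 and E16.5 class differed in the opposite direction in the chondrogenic-like (13.4%), tenogenic-like (12.1%) and epithelial-like (5.48%) clusters. The E12.5 and E16.5 class had a smaller excess in cluster 5 (11.4%). The highest single ratios were in the epithelial-like cluster (Ifi202b, 92.5, Hsf2, 86.3, and Ripk2, 82.1) and the dermal fibrogenic-like cluster (Dkk2, 63.4, Ibtk, 63.3, and Magi2, 62.2). In cluster 1 the leading members were those near Chrm3 (12.1), Stk31 (10.9) and Gga2 (10.1), and in cluster 5 those near Farsb (13.7), Prkg2 (11.8) and Papss1 (10.8). Ratios were lower in cluster 2 (Antxr1, 5.71, Herc2, 5.64, and Lurap1l, 4.95) and in cluster 8 (Iqcn, 6.3, Sgk1, 3.48, and Sparc, 3.36). Names give the nearest start site, which was 491208 bp away for Hsf2, 183616 bp for Chrm3 and 147834 bp for Dkk2.

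Some members highest in the chondrogenic-like cluster lay near cartilage genes, and other members near such genes were highest elsewhere. Of the 7 members on the chondrogenic list, 3 were highest in that cluster, 2 in cluster 1 and 1 each in clusters 3 and 5. In the chondrogenic-like cluster, the 3 members with the highest ratio were those near Sorbs2 (33.7), Foxa2 (31.3), a forkhead factor with a role in chondrocyte hypertrophy, and Sox9 (29.7), the main regulator of cartilage. The member 84141 bp upstream of Sox9, at chr11:112697677-112698489, had a count in 20.4% of chondrogenic-like nuclei and in at most 1.15% of any other cluster. The 2 members within 50 kb of Col2a1, which encodes the main cartilage collagen, were found in 23.5% and 17.9% of these nuclei, and in at most 3.13% and 2.22% of the other clusters. The member 44366 bp from Matn4, a matrilin, was nearest to Sdc4. It was found in 13.1% of the chondrogenic-like nuclei and in at most 3.82% of any other cluster. By contrast, the member 36006 bp downstream of Sox9 was found in 11.5% of the dermal fibrogenic-like and 2.18% of the chondrogenic-like nuclei. Those within 50 kb of Cnmd and Matn3 were highest in cluster 1 and that within 50 kb of Comp in cluster 5. The Matn3 and Comp members were nearest to Laptm4a and Upf1. In the tenogenic-like cluster the leading members were those near Runx1 (29.6), Mrpl3 (28.2) and Trpm3 (27.3), none of which is on the tenogenic list. The list's own members were highest in cluster 3 (35281 bp from Kera and nearest to Epyc) and in cluster 1 (in Cilp).

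Protein-coding genes near members were counted within 50 kb of any of their start sites, a window in which neighbouring genes can share a member. Genes with start sites far apart therefore had wider windows. Of 20807 autosomal protein-coding genes, 6089 (29.3%) had at least 1 member, 1806 had 2 or more and 129 had 4 or more. Gas7 (growth arrest-specific 7) and Dusp1 (a MAP kinase phosphatase induced by stress and glucocorticoids) had the most, with 8 each among 32 and 27 E16.5 peaks with a count in 3% or more of nuclei. Over all such peaks, 9.45% were members. Mrtfa (a co-activator of serum response factor), Zfp385b and Ergic1, which neighbours Dusp1, had 7 each, among 25, 26 and 22 peaks. Col1a2, Dlc1 (a GTPase-activating protein), Fadd (a death receptor adaptor), Hdac4 (a histone deacetylase) and Map1b (a microtubule protein) had 6 each. Their peaks numbered 13, 41, 10, 14 and 21 in that order. Clec2d and Tmed10 had 5 each, among 7 and 10 peaks.

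The members at a locus were not all carried by the same nuclei. At Dusp1 the 8 members had their highest level relative to other nuclei in 6 different clusters, with shares from 3.66 to 6.63%. One at chr17:26488646-26489636 had a count in 17.7% of cluster 1 and in at most 6.28% of any other. Another at chr17:26511791-26513485, 4119 bp from the start site, was found in 15.7% of cluster 3. The one at chr17:26592349-26593158, which lay in Ergic1 and 2122 bp from its start site, was found in 15.5% of the chondrogenic-like nuclei. At Gas7, 4 of the 8 members were highest in cluster 5, 2 in cluster 2 and 2 in the epithelial-like cluster, with shares from 3.2 to 8.35%.

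The run over Col1a2, which encodes a chain of type I collagen, lay within the gene itself. Its 6 members overlapped exons between chr6:4509319 and 4538175 and had shares of 7.75, 6.66, 3.07, 13.6, 6.24 and 6.87% in order along the gene. Relative to other nuclei, 5 had their highest level in the dermal fibrogenic-like cluster (ratios of 1.68 to 3.99) and the last in the chondrogenic-like cluster (1.88), and each was low in the epithelial-like cluster, at 0.424 to 3.99%. Each was found in 6.26 to 19.7% of the tenogenic-like nuclei. The Col1a2 promoter held 56.1 CPM at E16.5, against 49.5 CPM at E14.5 and 43.7 CPM at E12.5, a log2 ratio of 0.36 to E12.5 and of 0.18 to E14.5 by count, but of -0.34 and -0.74 per kb of called width.

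Genes were also grouped into 25 lists of cell type markers and pathways, with a region near several genes of a list counted once, and read against 2 backgrounds: 29.3% of all genes had a member within 50 kb, and 9.45% of all E16.5 peaks with a count in 3% or more of nuclei were members. Near a list gene means within 50 kb of a start site, where another gene can be nearer. The members so named for Comp and Sox10 were nearest to Upf1 and Polr2f. Shares of single lists rest on few members and are given without intervals. Whether they differ from 9.45% by more than counting error was not tested. Fibrogenic markers had at least 1 member at 15 of 18 genes and 25 members among 174 peaks (14.4%). Cd34 (a surface marker of interstitial fibroblasts) had 3 members, with the largest at 9.4% of nuclei, and these were highest in clusters 2 and 5. Fbn1 (fibrillin), Fap (fibroblast activation protein) and Col15a1 had 3 each, and Dpt (dermatopontin) and Ly6a had 2 each. Genes of collagens and connective tissue matrix had a member at 15 of 22 loci and 29 members among 225 peaks (12.9%), led by Col1a2 and by Dcn (decorin) with 5.

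Joint markers had a member at 8 of 9 genes and 15 among 117 peaks (12.8%). Erg, a transcription factor of articular cartilage, had 4 members, of which 2 were highest in the dermal fibrogenic-like cluster. The one at chr16:95550016-95551909 was found in 33.7% of the chondrogenic-like and 14.2% of the tenogenic-like nuclei, and in at most 3.34% of the others. Dact2 also had 4, and Prg4, which encodes lubricin, had 1. Perineural markers had 8 members among 61 peaks (13.1%), with 3 at Mical2. The E16.5 tissue was the segment with the elbow joint, and the part of dissection in these counts was not tested.

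Among pathway lists the share was highest for genes of the glucocorticoid response, with a member at 8 of 9 genes and 22 members among 114 peaks (19.3%). Besides Dusp1 they included Sgk1 (a serum and glucocorticoid-regulated kinase) with 5, Fkbp5 (a co-chaperone of the receptor) with 4, Errfi1 with 2 and Mt1 and Mt2 (metallothioneins), which share 1. Genes of AP-1 and the early response had a member at 8 of 10 and 16 among 117 peaks (13.7%), with 4 near Fos. Of these 4, the one at chr12:85489832-85490723 was found in 25.9% of the epithelial-like nuclei and in at most 3.9% of any other cluster. Cytokine and NF-kappaB genes had a member at 13 of 22 and 25 among 202 peaks (12.4%), with 4 each near Il33, an alarmin, and Socs3, a feedback inhibitor of cytokine receptors. One near Il33 at chr19:29986464-29987343 was found in 23.1% of the dermal fibrogenic-like nuclei and in at most 1.51% of any other cluster. The largest share on the cytokine list was near Nfkb1 (10.5%) and on the early response list near Fosb (5.34%).

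Several lists had fewer members among their peaks than the 9.45% of all peaks, although their shares of genes with a member lay on both sides of that of all genes (29.3%). Limb patterning genes had a member at 6 of 21 (28.6%) and 7 among 164 peaks (4.27%), with 2 near Fgf10 and 1 each near Meis2 (10.7% of nuclei), Tbx5, Tbx4, Msx1 and Gli3. Wnt signalling genes had 8 among 175 peaks (4.57%), tenogenic markers 2 among 91 (2.2%, near Kera and Cilp), chondrogenic markers 7 among 135 (5.19%) and MP markers 7 among 116 (6.03%). The shares of genes with a member on these 4 lists were 33.3, 25, 31.6 and 60%. Genes of the NFI factors themselves had a member at 2 of 4 and 3 among 63 peaks (4.76%), of which 2 lay in Nfib (4.49 and 6.11% of nuclei, both highest in the epithelial-like cluster) and 1 near Nfia. The leading members on these lists were near Wnt16 (6.9%) for Wnt signalling, where Fzd4 had 2, near Comp (7.38%) for cartilage and near Osr1 (6.74%) for MP markers, where Id3 had 2. Those 2 of Id3 were nearest to Rpl11 and E2f2. Lists of TGF-beta and BMP signalling (7.43%), dermal fibrogenic (6.72%), osteogenic (7.53%) and pericyte genes (8.33%) and of matrix proteases (8.4%) lay between these and the 9.45%. Adipogenic genes (9.8%) lay just above it. The genes with the most members on their lists were Tgfbr2, a TGF-beta receptor (3), Twist2, a dermal regulator (3), Timp3, a protease inhibitor (3), Gucy1a1 (2) and Lpl (2). On the adipogenic list Lpl was tied with Cebpa, Pparg and Zfp423. The largest shares outside these genes were near Dmp1 (7.43%, nearest to Dspp) and Mmp2 (7.28%). Runx2, the regulator of bone formation on the osteogenic list, had 2 members, both highest in the dermal fibrogenic-like cluster, at 17.6% and 30% of its nuclei.

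Lists of cells that the sort should hold few of were also counted. Epithelial genes had 9 members among 36 peaks (25%), with 3 each near Trp63 and Krt14. One of those in Trp63, which encodes a regulator of stratified epithelium, was found in 30% of the epithelial-like nuclei and in at most 1.38% of any other cluster. Of the 9 members, 8 were highest in the epithelial-like cluster. Without the epithelial-like nuclei the list had 2 among 24 (8.33%), the largest such shift of any list. Regions of any list that reached 3% only through those nuclei drop out by construction. The 25% and the shift therefore describe the rule and are no result about the list. The AP-1 and early response list went from 13.7% to 8.18%, below the 9.13% of all peaks under that setting, while the fibrogenic (14.9%), collagen (13%), joint (12.4%) and glucocorticoid (18%) lists stayed above it. Blood markers had 5 among 43 peaks (11.6%), endothelial 4 among 45 (8.89%), myogenic 3 among 60 (5%) and Schwann cell markers 1 among 29 (3.45%), near Sox10. Csf1r, a macrophage receptor, had 3 of the blood members, and the largest on the endothelial and myogenic lists were near Cdh5 (4.29%) and Des (4.33%). Lin28a and Igf2bp1 of the developmental timing list had 1 each among the 29 peaks of that list (6.9%). The member 43168 bp from Lin28a lay in an intron of Crybg2, 1194 bp from the start site of Crybg2. It was found in 45.3% of the epithelial-like nuclei and in at most 4.12% of any other cluster.

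**Figure D4:**
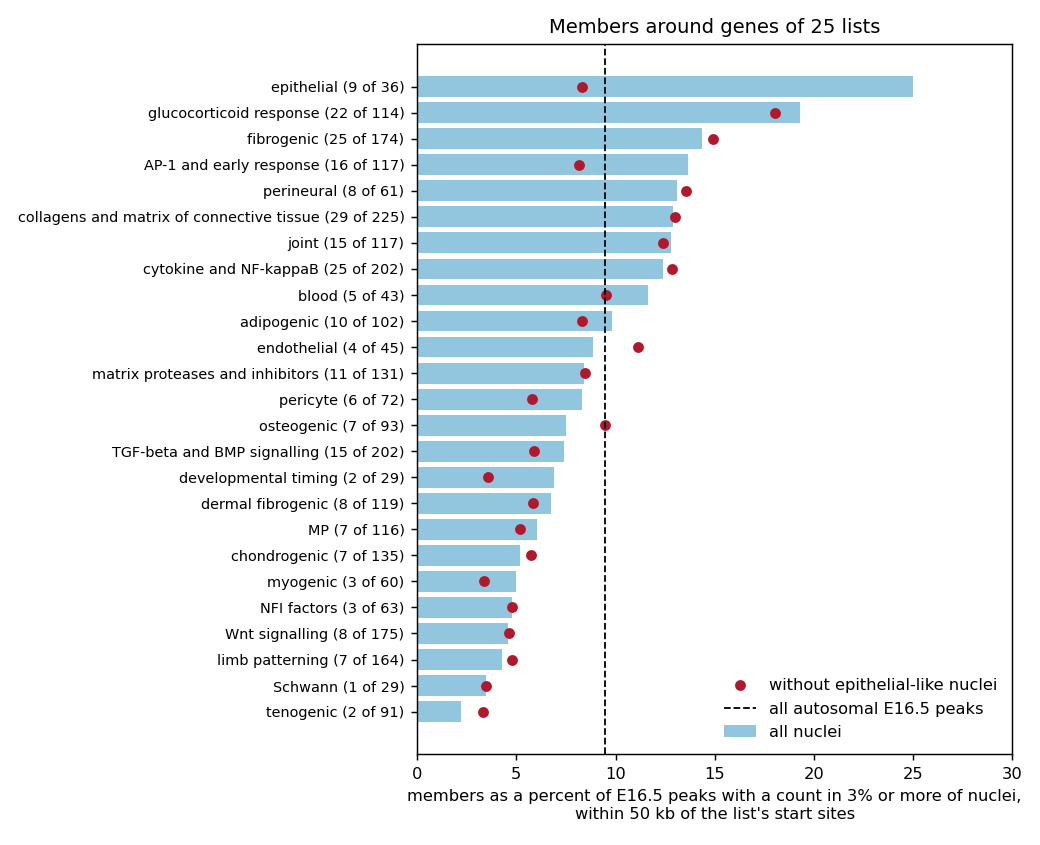
Members as a percent of E16.5 peaks with a count in 3% or more of nuclei within 50 kb of the start sites of 25 gene lists (y axis, with the numbers of members and peaks); bars use all nuclei, points leave out the epithelial-like nuclei, and the dashed line is the 9.45% of all such peaks. The epithelial list goes from 25% to 8.33% without those nuclei, and the glucocorticoid, fibrogenic, collagen and joint lists stay to the right of the line in both.

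Motifs were searched on both strands in the central 300 bases of the 8269 members more than 1000 bp from any start site. The AP-1 motif TGANTCA was found in 22.2% of them (21.3 to 23.1%), against 12.6% (12.2 to 13%) of regions called at all 3 stages in the same range of shares and 20.6% of all distal E16.5 peaks. The NFI half-site TTGGCA was found in 32.1% (31.1 to 33.2%), against 20.8% and 23.9%. The full NFI palindrome, TTGGC and GCCAA with 5 bases between them, was in 0.0726% of members and 0.116% of the compared regions, with overlapping intervals. The motif of GATA factors, AGATAA, was in 18.7% against 13.1%, and in 16.5% of the E14.5 and E16.5 class and 14.9% of the E12.5 and E16.5 class. The glucocorticoid receptor half-site AGAACA was in 27.8% (26.8 to 28.8%) against 25.8% (25.3 to 26.3%). It was in 28.5% of the E14.5 and E16.5 class, 26.4% of the E12.5 and E16.5 class and 26.7% of all distal E16.5 peaks. The CTCF core CCACNAGG was less frequent in members, at 3.83% against 8.65%, and so was the GC-rich SP/KLF site GGGCGG, at 4.04% against 7.6%. Both were also less frequent in the E14.5 and E16.5 class (4.05% and 3.73%) and in the E12.5 and E16.5 class (5.26% and 5.54%). RUNX (TGTGGTT, 7.45% against 7.76%), TEAD (GGAATG, 20.6% against 20.7%) and the homeobox core (8.36% against 8.23%) differed by less than counting error. AP-1 motifs and NFI half-sites occurred together in 631 members (7.63%), and 4407 (53.3%) held neither.

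Among E16.5 peaks with a count in 3% or more of nuclei, the 2 motifs followed different earlier lists. The AP-1 motif was frequent in both of these classes that the E14.5 list lacks, in 27.2% of the regions called at E12.5 and E16.5 and 22.2% of the members. It was found in 11% of those called at E14.5 and E16.5. The NFI half-site was frequent in both of these classes that the E12.5 list lacks, in 40.3% of the regions called at E14.5 and E16.5 and 32.1% of the members. It was found in 19.2% of those called at E12.5 and E16.5. In the 172 distal regions called at E12.5 alone (with a count in 3% or more of E12.5 nuclei) the shares were 6.4% and 8.14%. AP-1 was thus infrequent in these regions, although the E14.5 list lacks them too. E16.5-only regions under the 3% share held AP-1 in 26.5% (26.1 to 26.8%) and the NFI half-site in 29.4% (29 to 29.8%), more and fewer than the members by more than counting error. These regions were narrower, with a median width of 367 bp against 911 bp. Over whole regions AP-1 was in 26.8% of them and 48.2% of the members, so its order depended on the window. The NFI half-site was then in 31.3% and 63.3%. The part of tissue digestion, which was shared by both later libraries and not by the earliest, was not tested.

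Motif content also differed by the nuclei that carried a member. Sorted by the cluster with the highest level, AP-1 was found in 32.7% (30.5 to 35.1%) of the members of the epithelial-like cluster and in 15.9 to 24.5% of those of clusters 1 to 6, and the NFI half-site in 24.6% and in 27.2 to 40.3%. With members of the epithelial-like cluster set aside, 19.6% held AP-1 and 34% the NFI half-site, still above the 12.2% and 21.9% of regions called at all 3 stages treated alike. Cluster 5 had the most NFI half-sites (40.3%, 38.1 to 42.4%) and 24.4% with GATA. These letters are those in capitals in the region near Farsb shown above.

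The E-box and the homeobox core each stood out in 1 cluster. The E-box CAGCTG was in 38% (35.3 to 40.7%) of members highest in cluster 1, and in 12.7 to 20.9% of those highest in clusters 2 to 7. In regions called at all 3 stages that were highest in cluster 1 it was in 34.4%. The homeobox core TAATTA was in 18.1% (16.2 to 20.2%) of members highest in the dermal fibrogenic-like cluster and in 4.58 to 7.3% of those highest in the other clusters up to 7, while RUNX was in 11.7% (10.1 to 13.5%) and 5.74 to 9.36%, with an interval that overlapped that of cluster 4 (6.96 to 12.3%). Regions called at all 3 stages that were highest in cluster 3 held the homeobox core in 11.9% and RUNX in 9.74%.

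**Figure D5:**
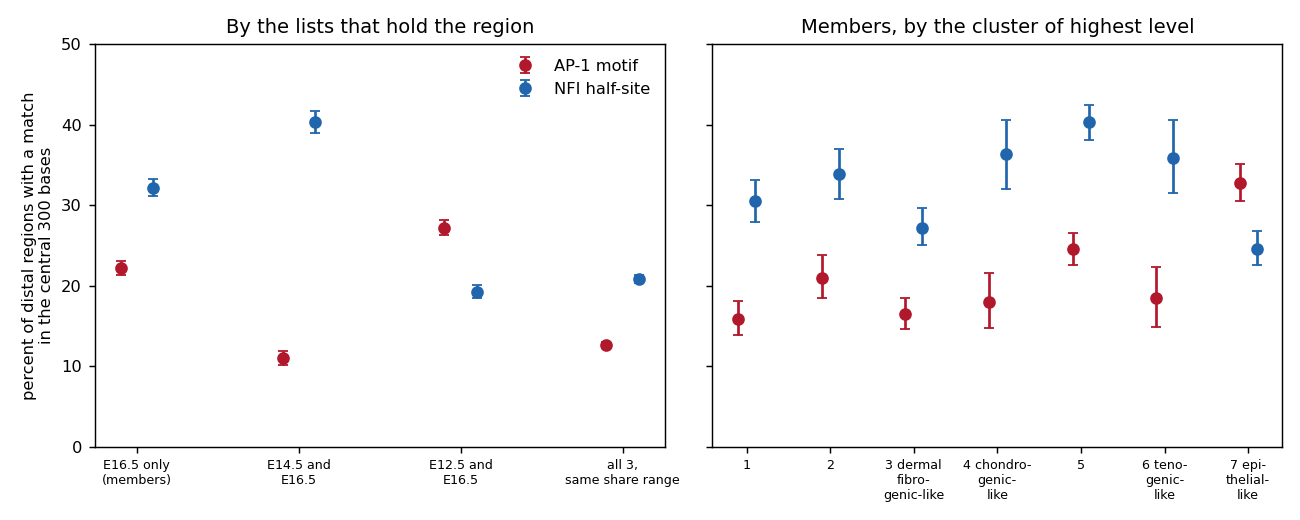
Percent of distal regions (y axis) with an AP-1 motif or an NFI half-site in the central 300 bases, by the lists that hold the region (left) and, for the members, by the cluster of highest level (right, clusters 1 to 7); points are shares and bars 95% binomial intervals. Among the members AP-1 is highest in the epithelial-like cluster (32.7%) and the NFI half-site in cluster 5 (40.3%).

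Promoters near members were compared between stages with regions called in all 3 lists, which the choice of members did not use. For 14267 genes with such a promoter, the level was expressed in CPM, here counts per 1000000 counts in shared regions. For E16.5 over E12.5, genes differed little by number of members, with a median log2 ratio of -0.01 for 9385 genes with no member within 50 kb, 0.02 for 3390 genes with 1 and 0.07 for 1492 with 2 or more. A level at least 1.5-fold higher at E16.5 was found for 154 of the genes with 2 or more members (10.3%), where the background over all genes was 6.1%, and one at least 1.5-fold lower for 79 (5.3%), where it was 8.07%. The medians differ by far less than the spread among genes, whose quartiles for genes with 2 or more members were -0.15 and 0.28.

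Between E14.5 and E16.5 the medians were -0.29, -0.26 and -0.22 in the same order, around a median of -0.28 over all genes. Here 100 genes with 2 or more members (6.7%) were at least 1.5-fold higher at E16.5, where the background was 5.07%, and 77 (5.16%) at least 1.5-fold lower, where it was 8.86%. Per kb of called width, all these medians were below 0 and nearly equal, at -0.18, -0.17 and -0.16 against E12.5, so the sign against E12.5 depended on the scale. Against E14.5 the medians per kb were -0.68, -0.67 and -0.67, with no order by the number of members. The part of called peak width in these ratios was not tested.

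Promoters of some genes with members had more counts at E16.5 than at both earlier stages, by count and per kb of called width. Mfap5 (a microfibril protein), with 1 member, was at 2.23, 2.92 and 10.8 CPM in order of stage. C1qtnf3, with 1, was at 6.78, 14.9 and 29.9, and Prg4, with 1, at 1.68, 2.66 and 6.33. Nfia, with 1, was at 39, 71.6 and 110. Log2 ratios per kb for these 4 genes were 0.65 to 1.40 against E12.5 and 0.07 to 0.67 against E14.5.

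For other genes the sign of the ratio depended on the scale. Dpt, with 2 members, was at 5.28, 8.18 and 32.6 CPM and Il33, with 4, at 2.66, 6.8 and 19.9. Per kb their log2 ratios were above 0 against E12.5 (0.60 and 0.74) and below 0 against E14.5 (-0.42 and -0.24). Over all genes the medians per kb were -0.18 against E12.5 and -0.67 against E14.5. Socs3, with 4, was at 61.4, 78.2 and 140.5, Col3a1, with 1, at 42.2, 43.1 and 108.7, Col6a3, with 1, at 22.4, 28.7 and 74.8 and Dcn, with 5, at 20.8, 21.6 and 38.6, and per kb each of these 4 was below 0 against both stages, from -0.05 to -0.83. On the fibrogenic list, 7 of 15 promoters were at least 1.5-fold higher at E16.5 than at E12.5 and 1 was lower by count (6.1% and 8.07% of all genes), and per kb 4 were higher and 1 lower (1.77% and 13.7% of all genes). Against E14.5, 5 of the 15 were higher and 0 lower by count (5.07% and 8.86% of all genes). Per kb 1 was higher and 5 were lower, where 0.224% of all genes were higher and 63.5% lower. A lower value per kb was thus common to most genes. On the collagen and matrix list, 7 of 21 were higher and 0 lower by count than at E12.5 (6.1% and 8.07% of all genes). Per kb 1 was higher and 4 were lower (1.77% and 13.7%). That list thus had more promoters higher than lower by count and more lower than higher per kb.

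Several genes with many members had like promoter counts at the 3 stages, and others did not. Gas7, with 8, was at 24.6, 34.04 and 40.15 CPM, with a log2 ratio to E12.5 of 0.71 by count and -0.20 per kb. Ergic1, with 7, was at 20.13, 31.39 and 34.35 CPM, with 0.77 and -0.42. Dusp1 was at 83.1, 100.2 and 89.3 CPM at the 3 stages, Sgk1 at 98.4, 95 and 96.4, and Erg was lower at E16.5, at 37.1, 33.4 and 22.6. By count, 2 of 9 promoters of the glucocorticoid list, which had the highest share of members among pathways, were at least 1.5-fold higher than at E12.5 (6.1% of all genes), and per kb 0 of 9 were. On the limb patterning list 5 of 21 promoters were at least 1.5-fold lower at E16.5 than at E12.5 and 0 higher by count (8.07% and 6.1% of all genes), and per kb 4 were lower and 1 higher (13.7% and 1.77%).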

How the data were processed

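Single-nucleus ATAC-seq was analysed in 3 libraries, 1 per stage. The deposited counts are the cuts made by the transposase in each called peak of each nucleus. The authors made them with Cell Ranger ATAC (1.1.0 per the submitters' processing notes, 1.0.1 and 1.2.0 per the file headers) on mm10, calling peaks in each library on its own, and no further normalization was applied to them. Deposited peak and barcode lists gave positions and nuclei. A cut count can include both ends of a fragment, so Poisson intervals used half-counts rounded up as fragments.

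Peaks were merged with a 1 bp overlap (bedtools 2.31.1, Python 3.11.15). Annotation came from the GENCODE basic gene models for GRCm38. E16.5 nuclei were clustered by latent semantic analysis of 80590 peaks that overlapped a region called at all 3 stages, leaving out 100000 bp around every marker gene, with 29 components and k-means into 8 clusters (scikit-learn 1.9.0). A cluster was named only where at least 3 markers of a list were 1.5-fold higher than in other nuclei and its leading genes did not go against the name. The marker count alone was not taken as enough. Clusters 2, 5 and 8 also had at least 3 such markers of a list and were left unnamed. In clusters 6 and 7, where several lists had 3 such markers, the name is that of the list with the highest median ratio. No doublet caller was run, and all deposited nuclei were kept. Levels were counts per 1000000 counts (CPM) in regions called at all 3 stages, with a pseudocount of 0.5 in ratios of marker genes. With 1 library per stage no test was made, and the intervals measure counting error alone. The calculations were tested on simulated data.

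Genes named were the nearest protein-coding genes of the 15 members with the largest shares, the 12 genes with the most members, the leading genes of each list, the 3 members with the highest ratio per cluster and the 3 regions on either side of the 3% limit. One of the 15 is not reported here. Further genes of the lists were named after their values were seen. Members and gene lists were chosen with earlier results of these data known. Printed sequences are the central 300 bases read from the GRCm38 genome, skipping chromosome 18 and windows over annotated exons. Those of clusters 1, 2 and 8 by ratio alone are not shown, and 3 were added after the motif shares were known.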

Additional observations from a re-analysis of the deposited data

How the results depend on the processing

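No paired analysis was possible because each stage had 1 library. Alternatives without the epithelial-like nuclei, for the NFI half-site and by range of overall share were chosen after seeing the data. The number of regions was 18733 at a minimum share of 2%, 2189 at 5% and 1392 after thinning to a fixed depth. Without the epithelial-like nuclei 8233 regions met the rule, of which 7494 were among the 8585. The share at promoters was 1.43% with protein-coding start sites only, 6% with promoters from 2000 bp upstream to 500 bp downstream, 3.29% at the 5% minimum and 3.33% without the epithelial-like nuclei. The median distance to a start site was 43726, 18565 and 18805 bp with protein-coding start sites, at the 5% minimum and without the epithelial-like nuclei.

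Over whole regions in place of their central 300 bases, AP-1 was found in 48.2%, RUNX in 22.3%, the NFI palindrome in 0.242% and the NFI half-site in 63.3% of distal members. At the 5% minimum AP-1 was in 20.5%, RUNX in 6.4% and the NFI palindrome in 0%. Without the epithelial-like nuclei AP-1 was in 19.8% and the NFI half-site in 33.7%. The ratio of the highest to the lowest member load, 2.42, became 2.21 with 6 clusters, 2.53 with 10, 2.46 without the deepest 5% of nuclei, 2.2 by presence of a count and 2.13 without the epithelial-like nuclei. The share of members with a ratio of 2 or more in a cluster, 89%, was 90.1% among those with an overall share of 3 to 4% and 88.2% among those from 5 to 7.81%.

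The median promoter log2 ratio of genes with 2 or more members reversed to -0.16 against E12.5 per kb, and to 0.058 against E14.5 when scaled by the median ratio over genes. It was 0.041 against E12.5 with members within 100 kb, and against E14.5 it was -0.67 per kb, -0.24 within 100 kb and -0.19 at the 5% minimum. At equal level, E14.5 peaks holding less than the median member made up 41.3% when scaled by all counts and 6.38% per kb, and E12.5 peaks 63.6% and 62.3%. The cause of these shifts was not tested beyond the construction of each alternative. The design limits all comparisons between stages to 1 library each, and a region absent from an earlier list may have been open there below the calling limit.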
